A study of Mus musculus with 20 samples.

Results

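Of the 53440 genes in the FPKM table of this mouse RNA-seq experiment, 68 were replication-dependent histone genes, chosen by symbol: every row whose name starts with Hist1h, Hist2h, Hist3h or Hist4h, apart from 1 pseudogene model. They comprised 6 genes for the linker histone H1, 19 for H2A, 18 for H2B, 12 for H3 and 13 for H4. By cluster, 55 belonged to Hist1 on chromosome 13, 10 to Hist2 on chromosome 3, 2 to Hist3 on chromosome 11 and 1 to Hist4 on chromosome 6. Thus 43 genes reached 1 FPKM in at least 2 of the 8 libraries and entered the tests, namely 2 H1, 16 H2A, 9 H2B, 8 H3 and 8 H4 genes, and the other 25 did not. None of the 43 passed through a single group.

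The cells were TL1 mouse embryonic stem (ES) cells and embryoid bodies (EBs), the aggregates in which ES cells differentiate. The groups were EBs depleted of p150, the large subunit of chromatin assembly factor 1 (CAF-1) encoded by Chaf1a, by CRISPR/Cas9 (EB KO), EBs with intact p150 (EB WT), and the same genotypes as undifferentiated cells (ES KO and ES WT). ES cells grew in serum with LIF, and EBs in that medium with LIF withdrawn. Each group had 2 RNA-seq libraries, 1 H3K27me3 and 1 H3K4me3 ChIP-seq library, the ChIP on chromatin digested with micrococcal nuclease. The labels do not say whether the KO cells were 1 clone, nor whether each group's 2 RNA libraries came from independent cultures. The p-values therefore reflect library-to-library spread alone, which could be technical. The time in culture of the EBs is not given in the sources used here.

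Replication-dependent histone genes supply the histones that package newly copied DNA. Their transcripts accumulate in S phase and, unlike other mRNAs, end in a stem-loop and not in a poly(A) tail. The stem-loop is bound by SLBP and cut by a complex that holds the U7 snRNP, and transcription is driven by NPAT, a substrate of cyclin E with CDK2. CAF-1 works downstream of these genes, since it places newly made H3 and H4 onto DNA at replication forks. H1 genes encode the linker histones that bind where DNA enters and leaves the nucleosome, and H2A, H2B, H3 and H4 genes encode the nucleosome core. The RNA was extracted as total RNA and the libraries are labelled mRNA. If poly(A) RNA was selected, stem-loop transcripts were counted only in so far as they carried a tail, so all levels here are those of the RNA these libraries captured.

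The promoters of 5 members are shown with 250 bases before and 50 after the RefSeq transcription start in build GRCm38.p6. They are those of Hist1h2ah (chr13:22035594-22035893, minus strand), an abundant H2A gene with all 3 motifs searched, Hist1h1c (chr13:23738557-23738856, plus strand), Hist3h2a (chr11:58954435-58954734, plus strand), Hist3h2ba (chr11:58948661-58948960, plus strand) and Hist1h4k (chr13:21750504-21750803, minus strand), the 4 members whose RNA both fell in EB KO relative to EB WT and rose in EB WT relative to ES WT. Capitals mark the CCAAT box (ATTGG on the other strand), the TATA motif TATAAA (read as TTTATA on the other strand) and the octamer ATTTGCAT (read as ATGCAAAT on the other strand).
Hist1h2ah: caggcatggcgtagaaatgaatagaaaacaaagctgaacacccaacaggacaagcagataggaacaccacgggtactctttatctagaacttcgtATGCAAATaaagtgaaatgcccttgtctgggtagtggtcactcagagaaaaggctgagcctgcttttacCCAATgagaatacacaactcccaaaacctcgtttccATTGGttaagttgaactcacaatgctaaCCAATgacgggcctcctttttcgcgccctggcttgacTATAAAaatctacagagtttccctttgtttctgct
Hist1h1c: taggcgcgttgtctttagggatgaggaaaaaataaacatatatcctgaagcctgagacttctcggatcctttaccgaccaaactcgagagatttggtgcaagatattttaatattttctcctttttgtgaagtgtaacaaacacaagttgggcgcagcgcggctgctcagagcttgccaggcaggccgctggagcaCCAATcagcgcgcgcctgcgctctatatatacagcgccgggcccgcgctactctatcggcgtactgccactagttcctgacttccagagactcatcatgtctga
Hist3h2a: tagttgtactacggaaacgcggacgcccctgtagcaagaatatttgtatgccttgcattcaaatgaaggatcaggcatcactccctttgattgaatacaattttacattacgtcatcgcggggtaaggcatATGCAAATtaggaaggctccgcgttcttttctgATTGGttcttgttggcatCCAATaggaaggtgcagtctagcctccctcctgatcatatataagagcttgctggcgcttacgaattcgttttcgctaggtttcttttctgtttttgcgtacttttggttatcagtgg
Hist3h2ba: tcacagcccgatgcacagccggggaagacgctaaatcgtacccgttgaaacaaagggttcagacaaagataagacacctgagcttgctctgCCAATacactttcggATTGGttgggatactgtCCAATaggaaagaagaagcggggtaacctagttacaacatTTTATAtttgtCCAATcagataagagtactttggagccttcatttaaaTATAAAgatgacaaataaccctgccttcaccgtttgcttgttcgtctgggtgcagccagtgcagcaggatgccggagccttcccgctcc
Hist1h4k: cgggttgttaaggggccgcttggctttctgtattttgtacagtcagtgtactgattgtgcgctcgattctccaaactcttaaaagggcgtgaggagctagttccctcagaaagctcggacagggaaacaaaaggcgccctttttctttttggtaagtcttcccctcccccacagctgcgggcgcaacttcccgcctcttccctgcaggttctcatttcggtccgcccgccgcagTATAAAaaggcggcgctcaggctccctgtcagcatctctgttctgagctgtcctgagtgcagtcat

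RefSeq promoters were matched to 60 members, 1 of them with 2 starts, which gave 61 windows of 300 bases. Both strands were searched, and none of the 3 motifs contains another. CCAAT was present in all 6 H1, 16 H2A, 17 H2B and 10 H3 windows and in 3 of 12 H4 windows, against 37.4% of 32851 promoters of all genes. TATAAA was present in 34 of the 61 windows (55.7%), against 13.6% of all promoters. The octamer was present in 7 of 16 H2A and 7 of 17 H2B windows and in none of the H1, H3 and H4 windows, against 1.74% of all promoters. These windows are not independent. In 10 pairs of an H2A and an H2B gene that run in opposite directions, the windows overlap by 220 to 279 bases. A motif site in the overlap counts for both genes. Of these 3 exact motifs, the Hist1h4k window shown above holds TATAAA and no CCAAT, whereas Hist1h1c holds CCAAT alone. Other TATA-like sequences were not searched, such as the run tatatata before the start of Hist1h1c. The TATAAA of Hist1h2ah lies after the RefSeq start. The windows of the H2B genes Hist1h2bq and Hist1h2br were identical.

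H2A genes of the Hist1 cluster supplied nearly all of the histone signal. The 14 Hist1 H2A genes made up 92.3% to 97.6% of the summed FPKM of all 68 members, and the members together made up 0.242% to 0.434% of each library's total FPKM. Hist1h2ap was the highest, with 1308 and 916 FPKM in EB KO, 1068 and 769 in EB WT, 581 and 455 in ES KO, and 908 and 765 in ES WT. The EB KO and EB WT libraries overlapped for this gene, and both ES KO libraries lay below both ES WT libraries. Hist1h2aj, Hist1h2ah, Hist1h2ao, Hist1h2ad, Hist1h2ai, Hist1h2af and Hist1h2an followed, and these 8 were the only members over 100 FPKM on average over the 8 libraries. A further 4 members averaged between 10 and 100 FPKM, Hist1h2ab, Hist1h2ae, Hist1h2ag and the H1 gene Hist1h1c. Another 26 averaged between 1 and 10 FPKM and 30 averaged under 1 FPKM.

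The other types were far lower. Summed over all H1 members, FPKM were 5.85 and 9.85 in EB KO, 21.9 and 31.4 in EB WT, 8.37 and 7.73 in ES KO, and 5.23 and 5.79 in ES WT. H2B genes summed to 24.6 and 23.7 FPKM in EB KO, 27.7 and 38.4 in EB WT, 34.0 and 49.9 in ES KO, and 28.3 and 41.4 in ES WT, so that ES KO and ES WT overlapped. H3 genes summed to 15.7 and 8.80 FPKM in EB KO, 12.7 and 10.3 in EB WT, 21.2 and 37.4 in ES KO, and 19.3 and 26.9 in ES WT. For H3 the 4 EB libraries lay below the 4 ES libraries, while EB KO overlapped EB WT and ES KO overlapped ES WT. H4 genes summed to 13.9 and 18.4 FPKM in EB KO, 18.3 and 21.0 in EB WT, 23.0 and 31.4 in ES KO, and 20.4 and 21.8 in ES WT. H2A genes summed to 2780 and 2165 FPKM in EB KO, 2686 and 2586 in EB WT, 1886 and 1580 in ES KO, and 3085 and 2695 in ES WT. For H2A, ES KO lay below ES WT in both libraries, and the ratio of mean sums was 0.600 for ES KO over ES WT, against 0.938 for EB KO over EB WT. As mean shares of each library's total FPKM, these ratios were 0.604 and 0.810. Without Hist1h2ap, the ratios of mean sums were 0.592 and 0.792. The highest H2B gene, Hist1h2bc, had 5.48 and 7.49 FPKM in EB KO, 6.86 and 10.6 in EB WT, 9.95 and 10.3 in ES KO, and 6.16 and 9.97 in ES WT, and the H4 gene Hist1h4i had 1.95 and 3.95, 4.63 and 5.76, 5.77 and 4.58, and 4.67 and 5.75 FPKM in the same groups. Neither was called in any comparison. Hist4h4, an H4 gene apart from the other clusters, had at most 0.139 FPKM.

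**Figure D1:**
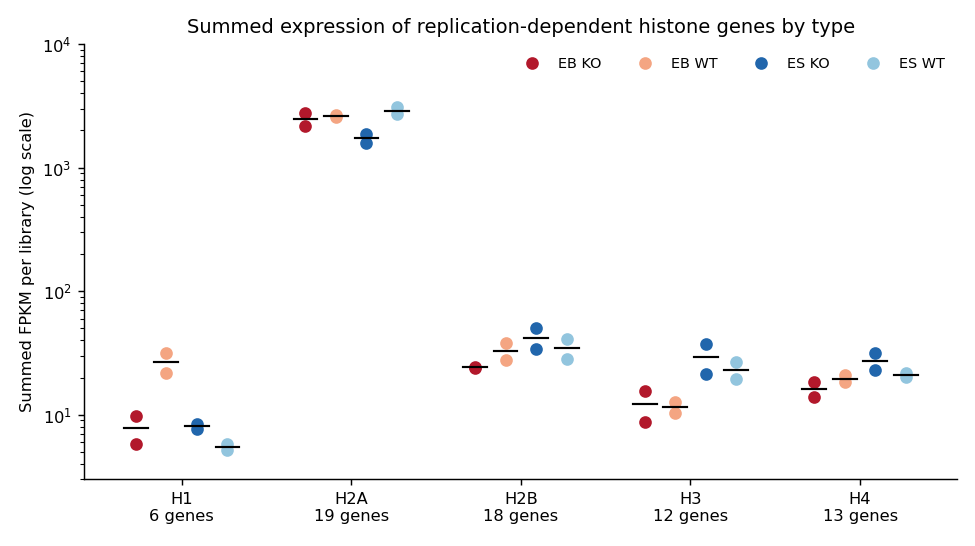
Summed FPKM of all members of each histone type (log axis), with the 2 libraries of EB KO, EB WT, ES KO and ES WT as points and their mean as a bar. H2A lies near 1580 to 3085 FPKM and every other type below 50 FPKM, with H1 highest in EB WT (21.9 and 31.4 FPKM).

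The contrast between H2A and H2B was also present between divergent neighbours. In 10 pairs an H2A and an H2B gene start 164 to 281 bases apart and run in opposite directions, and in all 10 the H2A gene averaged more FPKM than its H2B partner, by more than 10 times in 6. Hist1h2ad averaged 164 FPKM over the 8 libraries and its partner Hist1h2bf 0.450 FPKM, a ratio of 365. Hist1h2ap averaged 846 FPKM and Hist1h2br 4.10 FPKM, while Hist1h2ae averaged 16.1 FPKM and Hist1h2bg 2.67 FPKM. The H2A gene was higher in 8 of 8 libraries in 9 pairs and in 6 of 8 in the pair of Hist1h2aa and Hist1h2ba, testis-specific histones that averaged 0.217 and 0.0699 FPKM.

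**Figure D2:**
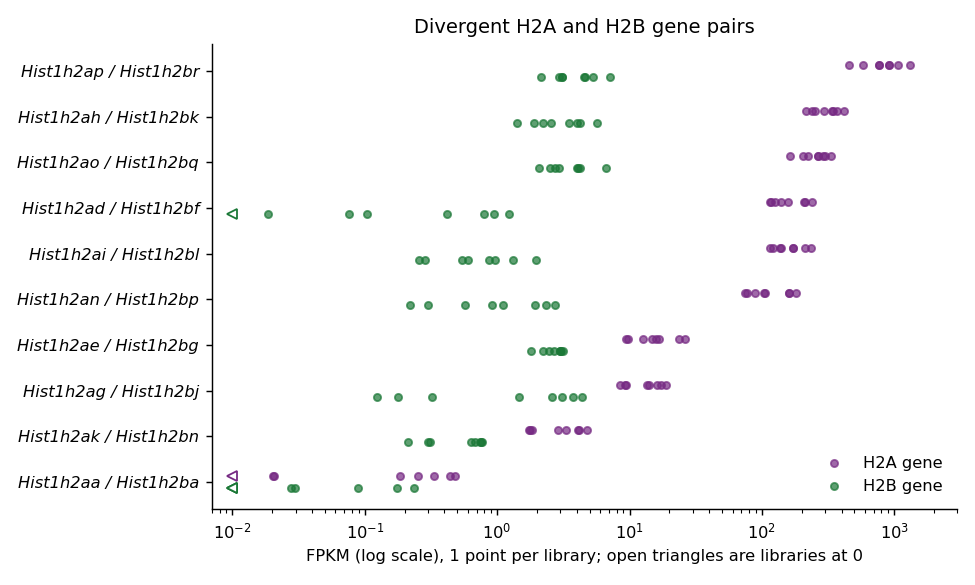
FPKM (log axis) of the H2A gene (purple) and the H2B gene (green) of the 10 divergent pairs, 1 point per library, with libraries at 0 as open triangles. The H2A gene lies to the right in 9 pairs in all 8 libraries, and the pair of Hist1h2aa and Hist1h2ba lies lowest.

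The annotation of H2A genes differed from that of the other types. All 19 H2A members overlapped another row of the table, against 6 of the 49 other members. In 18 of the 19, an overlapping row was a short model of 108 to 144 bases, which lay inside the gene except at Hist1h2aj, and no member of another type held such a row. Of the 19 short rows, 9 reached 1 FPKM in at least 1 library and 1, Gm44357 at Hist1h2aj, did so in all 8. The number at 1 FPKM or more was 1 and 3 of 19 in the EB KO libraries, 1 and 4 in EB WT, 1 and 1 in ES KO, and 8 and 1 in ES WT, with values up to 1322 FPKM. Low H2A genes of the Hist2 and Hist3 clusters held such rows as well. The part of these rows, and of reads shared between near-identical Hist1 copies, in the H2A levels was not tested, and single Hist1 core histone genes are therefore uncertain as to which copy the reads came from. Whether the FPKM used an effective length, which matters for genes this short, is not given in the sources used here.

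Some facts of the whole series bear on what follows. Chaf1a itself had 31.6 and 35.0 FPKM in EB KO against 31.7 and 32.1 in EB WT, and 48.1 and 38.0 in ES KO against 49.5 and 43.0 in ES WT (log2 difference 0.06, adjusted p = 0.757, and -0.11, adjusted p = 0.829, limma). A whole-gene FPKM cannot show a small CRISPR lesion, so the labels alone identify the KO libraries. Column totals ran from 641612 to 781876 FPKM. Of all genes tested, 3085 rose and 3992 fell in EB KO relative to EB WT, but 2308 and 5213 after rescaling to a common total, which shifts the all-gene median to -0.25 (-0.06 as deposited), and 3626 and 3416 after quantile normalization. In EB WT relative to ES WT 5577 rose and 3823 fell, but 4578 and 5104 after quantile normalization, which shifts that median to -0.10 (0.12 as deposited). In EB KO relative to ES KO 2640 rose and 1847 fell, but 2141 and 2309 after rescaling. The 6 pluripotency markers (Pou5f1, Nanog, Sox2, Zfp42, Esrrb, Klf4) summed to 1425 and 1149 FPKM in EB KO against 109 and 186 in EB WT. The 5 cardiac markers summed to 18.6 and 162 FPKM in EB KO against 2913 and 2126 in EB WT, and the 4 embryonic blood markers to 28.3 and 27.5 FPKM in EB KO against 2236 and 516 in EB WT. None of these markers was at 0 in an EB library. In these bulk samples, fewer cells of a type and less RNA per cell cannot be told apart, and the part of cell makeup in the histone results was not tested.

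In EBs, a subset of members was lower in KO. With limma on log2(FPKM + 1), 10 of the 43 tested members fell in EB KO relative to EB WT at an adjusted p under 0.05, and 0 rose (1 at an unadjusted p under 0.05, against 23.4% of all genes). Among all 15424 genes tested, 25.9% fell and 20.0% rose, so the count of members that fell was near the background and fewer members rose than genes at large. Those that fell were 1 H1 gene, 6 H2A genes, 1 H2B gene, 1 H3 gene and 1 H4 gene. The median log2 difference was -0.22 over the tested members and -0.06 over all genes. The count that fell was 2 without EB WT library 2, 3 without EB KO library 1 and 4 without EB KO library 2, and 0 with no filter on low values.

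The fall was largest for Hist1h1c, which encodes the linker histone H1.2 (ENSMUSG00000036181.2, chr13:23738808-23740367 in mm10). Hist1h1c had 4.27 and 9.09 FPKM in EB KO against 20.8 and 30.6 in EB WT. Both EB KO libraries lay below both EB WT libraries and near the ES level, which was 5.96 and 3.27 FPKM in ES KO and 3.21 and 3.60 in ES WT. The log2 difference in EBs was -1.85 (SE 0.37, adjusted p = 0.00672). Without EB WT library 2 the adjusted p was 0.0516. The other tested H1 gene, Hist1h1a, reached 0.354 and 0 FPKM in EB KO against 0.399 and 0.307 in EB WT, and its groups overlapped. Hist1h1c thus set the H1 sum: the EB KO over EB WT ratio of summed H1 FPKM was 0.295 with it and 1.19 without it.

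Hist3h2a and Hist3h2ba, the neighbouring H2A and H2B genes of the small Hist3 cluster, fell next most (chr11:58954685-58956830 and chr11:58948920-58949533 in mm10). Hist3h2a had 2.51 and 4.41 FPKM in EB KO against 11.2 and 12.5 in EB WT, with no overlap (log2 difference -1.56, SE 0.29, adjusted p = 0.00513). It was the member whose call in EBs remained when any of the 8 libraries was left out. Its locus overlaps that of Trim17, which had at most 0.519 FPKM, and whether counting used strand is not given in the sources used here. Hist3h2ba had 2.79 and 2.85 FPKM in EB KO against 7.84 and 11.2 in EB WT, with no overlap (log2 difference -1.45, SE 0.45, adjusted p = 0.0348). Its adjusted p was 0.128 without EB KO library 1, 0.104 without EB KO library 2, 0.0761 without EB WT library 1 and 0.169 without EB WT library 2.

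Among the 13 tested Hist1 H2A genes, 5 fell. Hist1h2an had 75.1 and 76.8 FPKM in EB KO against 106 and 159 in EB WT (log2 difference -0.77, SE 0.19, adjusted p = 0.0151). Hist1h2ab had 19.0 and 19.0 FPKM in EB KO against 26.6 and 39.1 in EB WT (log2 difference -0.73, adjusted p = 0.0126). Both separated the genotypes, as did Hist1h2ad (-0.59, adjusted p = 0.0236), Hist1h2ae (-0.56, adjusted p = 0.0206) and Hist1h2ai (-0.46, adjusted p = 0.0220). Each of these 5 calls depended on single libraries, with adjusted p up to 0.0628 for Hist1h2ab without EB KO library 1 (0.0501 without EB KO library 2). For Hist1h2an the adjusted p was 0.0779, 0.0556 and 0.0508 without EB KO library 1, EB KO library 2 and EB WT library 2, and for Hist1h2ad 0.0744, 0.103 and 0.118 without the same libraries. Likewise Hist1h2ae reached 0.0762, 0.0741 and 0.111 without those libraries, and Hist1h2ai 0.113, 0.0784 and 0.0812 without EB KO library 2, EB WT library 1 and EB WT library 2. The most abundant gene, Hist1h2ap, had a log2 difference of 0.27 in EBs (SE 0.24, adjusted p = 0.383). Of all 15424 genes tested, 8284 were below 0. The median over the 16 tested H2A genes was -0.48, and 14 of them were below 0. These genes are likewise not independent if near-identical copies share reads.

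Fewer genes of the other core types fell. Hist1h4k, an H4 gene (chr13:21750194-21750505 in mm10), had 3.28 and 4.22 FPKM in EB KO against 6.58 and 8.13 in EB WT, with no overlap (log2 difference -0.81, SE 0.21, adjusted p = 0.0178, and 0.0974 and 0.105 without EB KO library 1 and EB WT library 2). By contrast, the median over the 8 tested H4 genes was 0.20. Hist2h3c2, an H3 gene of the Hist2 cluster, had 0.303 and 0.368 FPKM in EB KO against 1.30 and 0.967 in EB WT (log2 difference -0.67, SE 0.22, adjusted p = 0.0411). It lies near the filter, and its adjusted p was between 0.0517 and 0.159 without EB KO library 1 or 2, EB WT library 1 or 2, or ES KO library 1 or 2. The H3 gene Hist1h3c had 4.71 and 2.53 FPKM in EB KO against 1.57 and 1.57 in EB WT, with both EB KO libraries higher, and did not pass the test (log2 difference 0.80, SE 0.29, adjusted p = 0.0600). It passed without EB KO library 2 (adjusted p = 0.0266) and without ES KO library 1 (0.0497). The median log2 difference was 0.05 for the 8 tested H3 genes and -0.09 for the 9 tested H2B genes. These 2 medians were -0.05 and -0.26 after rescaling each library to the same total, and 0.14 and 0.10 after quantile normalization.

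**Figure D3:**
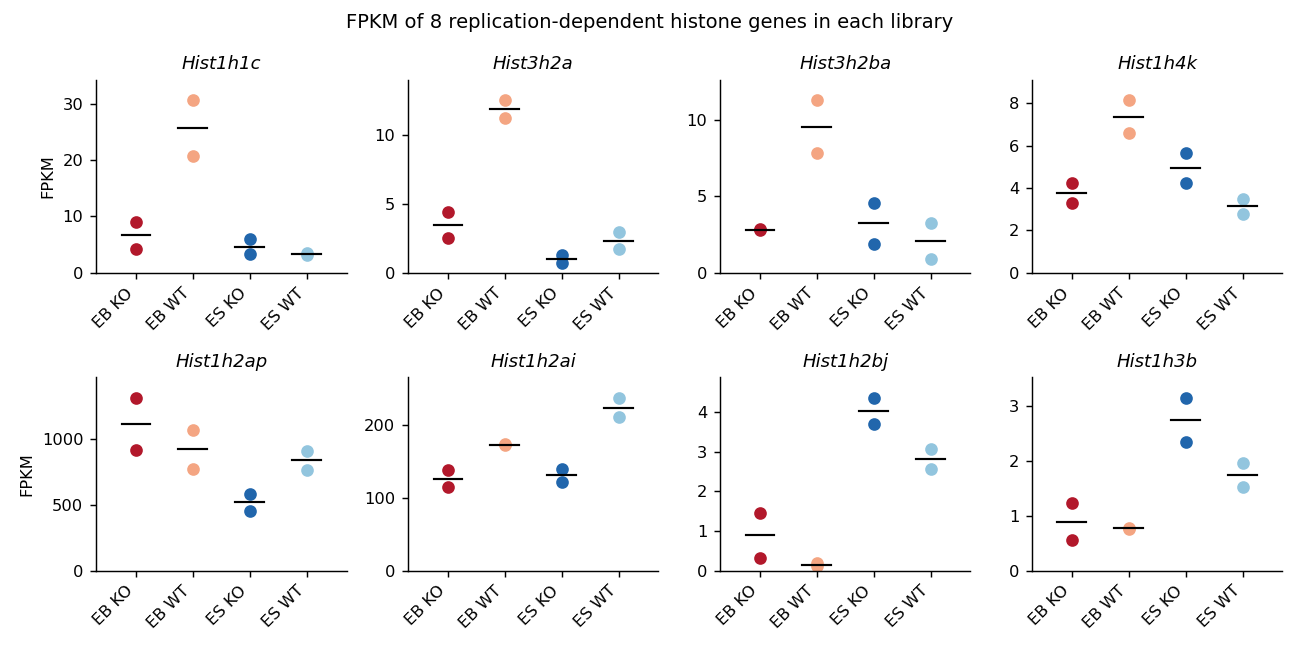
FPKM of 8 members in the 2 libraries of EB KO, EB WT, ES KO and ES WT, 1 panel per gene, with points for libraries and bars for means. Hist1h1c, Hist3h2a and Hist3h2ba stand high in EB WT alone (20.8 and 30.6, 11.2 and 12.5, 7.84 and 11.2 FPKM), whereas Hist1h2bj is high in both ES groups.

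In ES cells no member passed the test. With limma, 0 members rose and 0 fell in ES KO relative to ES WT, where 0.421% of all genes rose and 0.0778% fell. At an unadjusted p under 0.05, 11 of 43 members were lower (25.6%, against 4.38% of all genes) and 3 were higher (6.98%, against 9.27%). The 11 were all H2A genes, 10 of the Hist1 cluster and Hist3h2a. If reads are shared between near-identical Hist1 copies, these genes are not independent, and the count is not one of separate observations. Hist1h2ai had the smallest adjusted p, with 139 and 122 FPKM in ES KO against 236 and 210 in ES WT (log2 difference -0.77, SE 0.13, adjusted p = 0.0634). Hist1h2ah had 251 and 215 FPKM in ES KO against 418 and 369 in ES WT (log2 difference -0.75, SE 0.14, adjusted p = 0.0869). Hist1h2ao had 203 and 163 FPKM in ES KO against 334 and 290 in ES WT (log2 difference -0.77, adjusted p = 0.0941). In each of these the KO libraries lay below both WT libraries.

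H2A genes shared their direction in ES cells, although reads shared between near-identical Hist1 copies would tie their values together. All 16 tested H2A genes were below 0 in ES KO relative to ES WT, with a median log2 difference of -0.71 and a range from -0.82 to -0.21. Of all 15424 genes tested, 7071 were below 0 and 8287 above 0. All 16 stayed below 0 after quantile normalization (median -0.66) and after rescaling to the same total (median -0.71). Both ES KO libraries were below both ES WT libraries in 12 of the 13 tested Hist1 H2A genes. With ES WT library 1 left out, all 13 were below 0, with a median of -0.66. Over all types, 16 members were lower in both ES KO libraries (37.2%, against 18.5% of all genes) and 8 were higher (18.6%, against 25.6%). The tested H2B genes had a median of 0.40, with 7 of 9 above 0, the H3 genes 0.21 and the H4 genes 0.24. Hist1h4n, an H4 gene chosen after its values were seen, had 3.03 and 4.64 FPKM in ES KO against 1.74 and 1.30 in ES WT and missed the threshold (log2 difference 0.92, adjusted p = 0.189). The 5 fibroblast or feeder markers summed to 49.3 and 42.7 FPKM in ES KO against 5.17 and 8.24 in ES WT. Nearly all of that sum was Thy1, with 47.7 and 41.3 FPKM in ES KO against 4.40 and 7.39 in ES WT, while Col1a1, Col1a2, Postn and Lum had at most 0.785 FPKM in any ES library and Lum was at 0 in ES WT library 2. Their part in the ES results was not tested.

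**Figure D4:**
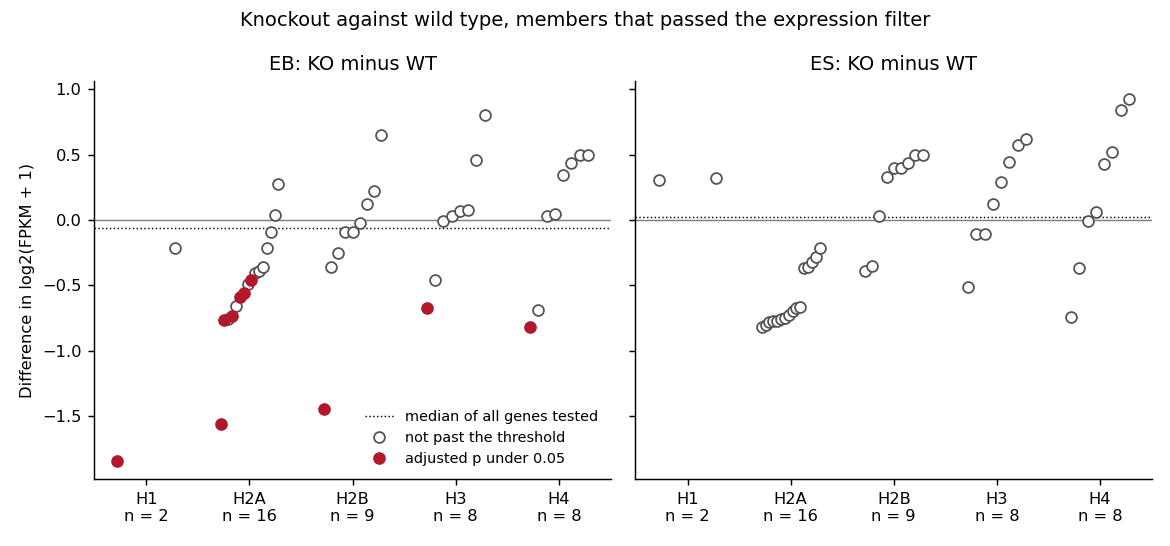
Difference in log2(FPKM + 1) of KO minus WT for each tested member, in EBs (left) and ES cells (right), by histone type, with filled points for an adjusted p under 0.05 and a dotted line at the median of all genes. In ES cells all 16 H2A genes lie below 0 with none filled, and in EBs the 10 filled points lie below 0.

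The KO effect differed between EBs and ES cells for a few members. The difference of differences, KO minus WT in EBs less the same in ES cells, was below 0 at an adjusted p under 0.05 for 2 of 43 members (18.6% of all genes) and above 0 for 0 (12.7% of all genes, and 4 members at an unadjusted p under 0.05, against 17.7% of all genes). Over all genes the calls above and below 0 were 1961 and 2875, but 2469 and 2282 after quantile normalization and 1436 and 3764 after rescaling. For Hist1h4k it was -1.34 (SE 0.30, adjusted p = 0.0167), with EB KO below EB WT and ES KO, at 5.63 and 4.25 FPKM, above ES WT, at 2.76 and 3.49 FPKM. For Hist1h1c it was -2.15 (SE 0.52, adjusted p = 0.0218). Neither call held in all left-out-library fits. For Hist1h4k the adjusted p was 0.0549 without EB KO library 1, 0.0619 without EB WT library 2 and 0.0562 without ES WT library 1. For Hist1h1c it lay between 0.0559 and 0.0790 without EB KO library 1, EB WT library 2, ES KO library 1, or ES WT library 1 or 2. Hist3h2ba (-1.94, adjusted p = 0.0553) and, in the other direction, Hist1h2aj (0.79, adjusted p = 0.0522) and Hist1h2ap (0.97, adjusted p = 0.0653) did not pass. Without EB KO library 2 the adjusted p was 0.0348 for Hist1h2aj and 0.0425 for Hist1h2ap. For Hist3h2ba it was 0.0429 without ES KO library 1, 0.0312 without ES WT library 2 and 0.0490 after rescaling to the same total. The test was made gene by gene, so it cannot decide whether the H2A genes as a type differed between EBs and ES cells. Of the 13 tested Hist1 H2A genes, 11 were above 0, with a median of 0.27, and 0 were called. Of all 15424 genes tested, 6892 were above 0.

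Differentiation changed members in both directions in WT. Relative to ES WT, 6 of 43 members rose in EB WT (36.2% of all genes) and 11 fell (24.8% of all genes), and the median log2 difference was -0.32 over the members and 0.12 over all genes. The members that rose were Hist1h1c, both Hist3 genes, the 2 tested H2A genes Hist2h2aa1 and Hist2h2aa2, and Hist1h4k. All but Hist1h1c and Hist1h4k lie outside the Hist1 cluster. Those that fell all lie within it. EB WT and EB KO are each set here against ES libraries that also serve the genotype comparisons, so these counts are not independent of the ones above.

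Hist1h1c had the largest rise, 20.8 and 30.6 FPKM in EB WT against 3.21 and 3.60 in ES WT (log2 difference 2.57, SE 0.37, adjusted p = 0.000825). Hist3h2a had 11.2 and 12.5 FPKM in EB WT against 1.70 and 2.97 in ES WT (1.97, SE 0.29, adjusted p = 0.000935). Hist3h2ba had 7.84 and 11.2 FPKM in EB WT against 0.887 and 3.28 in ES WT (1.87, SE 0.45, adjusted p = 0.00899, and 0.0614 without EB WT library 2). In all 3 genes both EB WT libraries were above both ES WT libraries. Hist2h2aa1 had 7.61 and 7.94 FPKM in EB WT against 1.40 and 3.31 in ES WT (1.45, SE 0.31, adjusted p = 0.00549). Hist2h2aa2, its near-identical neighbour, had 6.51 and 7.23 FPKM in EB WT against 1.56 and 3.49 in ES WT (1.21, SE 0.30, adjusted p = 0.00991, and 0.0560 without EB WT library 2). Hist1h4k had 6.58 and 8.13 FPKM in EB WT against 2.76 and 3.49 in ES WT (1.02, SE 0.21, adjusted p = 0.00466).

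The falls came from all 4 core types. Among H2B genes, Hist1h2bj had 0.125 and 0.179 FPKM in EB WT against 2.58 and 3.07 in ES WT, the largest fall of any member (log2 difference -1.73, SE 0.29, adjusted p = 0.00181), and Hist1h2bp fell by 1.0 (adjusted p = 0.0408). Among H3 genes, Hist1h3h had 2.15 and 1.10 FPKM in EB WT against 4.00 and 8.19 in ES WT (-1.40, SE 0.51, adjusted p = 0.0472), and Hist1h3c fell by 1.01 (adjusted p = 0.0205), Hist1h3a by 0.88 (adjusted p = 0.0258) and Hist1h3b by 0.63 (adjusted p = 0.0498). Thus 4 of the 8 tested H3 genes fell, the highest share of any type. Among H4 genes, Hist1h4b had 1.09 and 0.499 FPKM in EB WT against 3.53 and 2.79 in ES WT (-1.23, SE 0.41, adjusted p = 0.0333), and Hist1h4f 0.470 and 0 FPKM against 1.32 and 1.54 (-1.0, SE 0.24, adjusted p = 0.00838). Among H2A genes, Hist1h2ae had 12.7 and 16.7 FPKM in EB WT against 23.5 and 26.3 in ES WT (-0.73, SE 0.15, adjusted p = 0.00458), Hist1h2ab fell by 0.71 (adjusted p = 0.00953) and Hist1h2ai by 0.37 (adjusted p = 0.0380).

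Most of the falls leaned on single libraries. Hist1h2bj, Hist1h4f and Hist1h2ae kept their calls whichever library was left out, and so did the rises of Hist1h1c, Hist3h2a, Hist2h2aa1 and Hist1h4k. Hist1h2ab did so except without ES WT library 1 (adjusted p = 0.0524). The other 7 falls, those of Hist1h2bp, Hist1h3h, Hist1h3c, Hist1h3a, Hist1h3b, Hist1h4b and Hist1h2ai, missed the threshold without EB WT library 2 and without ES WT library 2, with adjusted p from 0.0508 to 0.228. All of them but Hist1h2bp also missed it without EB WT library 1, and all but Hist1h3h without ES WT library 1. Hist1h2bp and Hist1h4b missed it as well without either EB KO library, and Hist1h3b without either ES KO library. Without ES WT library 1, and likewise without ES WT library 2, 4 of the 11 falls were called.

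In KO cells fewer members were called between EBs and ES cells than in WT. The same held for all genes, with 2640 rises and 1847 falls in KO against 5577 and 3823 in WT. Relative to ES KO, 2 members rose in EB KO (17.1% of all genes) and 6 fell (12.0% of all genes), with a median of -0.37 over the members and 0.07 over all genes. Hist1h2ap had 1308 and 916 FPKM in EB KO against 581 and 455 in ES KO (log2 difference 1.09, SE 0.24, adjusted p = 0.0158, and 0.0767 and 0.0779 without EB KO library 1 and ES KO library 2). Hist3h2a had 2.51 and 4.41 FPKM in EB KO against 1.26 and 0.725 in ES KO (1.14, SE 0.29, adjusted p = 0.0265, and 0.121, 0.0560 and 0.113 without EB KO library 2, ES KO library 1 and ES KO library 2). Both groups were separated in both genes. Hist1h2bj had 0.323 and 1.46 FPKM in EB KO against 4.36 and 3.71 in ES KO (-1.48, SE 0.29, adjusted p = 0.0118, and 0.0597 without ES KO library 1). The others that fell were the H1 gene Hist1h1a (-1.14, adjusted p = 0.0188), the H3 gene Hist1h3b (-1.0, adjusted p = 0.0197), the H4 gene Hist1h4b (-1.31, adjusted p = 0.0496) and the H2A genes Hist1h2ab (-0.67, adjusted p = 0.0283) and Hist1h2ae (-0.63, adjusted p = 0.0220). Each of these 5 missed the threshold without ES KO library 2, with adjusted p from 0.0725 to 0.147, and without EB KO library 2, with adjusted p from 0.0788 to 0.139. The count that fell was then 1 and 2. Hist1h2ab, Hist1h2ae and Hist1h4b also missed it without EB KO library 1, Hist1h2ab and Hist1h2ae without ES KO library 1, and Hist1h4b without any of the 4 WT libraries. All 9 tested H2B genes were below 0 in EB KO relative to ES KO, with a median of -0.58, as were 6903 of all 15424 genes tested. This was not particular to H2B. Below 0 were also 7 of 8 H3 genes (median -0.76), 7 of 8 H4 genes (-0.45), 9 of 16 H2A genes (-0.04) and 1 of 2 H1 genes.

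Genes that act on histone transcripts were tested in the same comparisons. Of 20 listed genes of histone transcription and mRNA processing, 19 had a row and all 19 were tested. In EB KO relative to EB WT 6 rose (20.0% of all genes) and 0 fell (25.9% of all genes, and 0 listed genes at an unadjusted p under 0.05), with a median of 0.22. Zfp473, a component of the U7 snRNP, had 15.7 and 12.1 FPKM in EB KO against 4.21 and 3.15 in EB WT (log2 difference 1.67, SE 0.20, adjusted p = 0.00117). Mif4gd, which links SLBP to translation, had 46.0 and 41.9 FPKM in EB KO against 16.7 and 20.4 in EB WT (1.21, adjusted p = 0.00363). Coil, the scaffold of the Cajal body, rose by 0.85 (adjusted p = 0.00139), Srrt by 0.51, Cstf2 by 0.36 and Npat by 0.41 (adjusted p = 0.0433). Slbp had 63.1 and 62.1 FPKM in EB KO against 55.5 and 51.6 in EB WT, with EB KO above EB WT, and did not pass (0.22, adjusted p = 0.0808). In ES cells 0 of the 19 were called, where 0.421% of all genes rose and 0.0778% fell. None of the 19 had an unadjusted p under 0.05 there, against 9.27% of all genes higher and 4.38% lower.

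Between EB WT and ES WT, 9 of the 19 fell (24.8% of all genes) and 2 rose (36.2% of all genes). Zfp473 (-2.17), Mif4gd (-1.55), Coil (-1.38), Srrt (-1.12), Pou2f1 (-0.99), Cstf2 (-0.65), Upf1 (-0.65), Cpsf3 (-0.35) and Slbp (-0.28, adjusted p = 0.0293) fell in EB WT relative to ES WT. Pou2f1 encodes Oct-1, which binds the octamer, Upf1 acts in histone mRNA decay and Cpsf3 encodes the nuclease that cuts at the stem-loop. The 2 that rose were Zcchc6 (1.04), which encodes a uridyltransferase, and Lsm10 (0.39), a protein of the U7 snRNP. Between EB KO and ES KO, where 12.0% of all genes fell and 17.1% rose, 5 fell, Srrt (-0.55), Upf1 (-0.59), Hinfp (-0.53), Zfp473 (-0.70) and Pou2f1 (-0.50), and Zcchc6 rose (0.80). The KO effect differed between EBs and ES cells for Coil (1.05), Zfp473 (1.47), Srrt (0.58) and Mif4gd (1.01), all positive, as for 12.7% of all genes.

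Genes of S phase, when histone transcripts are made, moved in the same comparisons. Of 12 tested genes of 13 listed, 10 rose in EB KO relative to EB WT (20.0% of all genes) and 0 fell (25.9% of all genes, and 0 listed genes at an unadjusted p under 0.05), with a median of 0.47. Ccne1, the gene of cyclin E1, had 64.3 and 68.1 FPKM in EB KO against 20.7 and 21.0 in EB WT (log2 difference 1.62, SE 0.16, adjusted p = 0.000609). Ung (1.11), Cdc6 (0.89) and Rrm2 (0.69), which act in DNA repair, origin licensing and nucleotide synthesis, followed. In ES cells 0 of the 12 were called, where 0.421% of all genes rose and 0.0778% fell. At an unadjusted p under 0.05, 1 was higher (9.27% of all genes) and 2 were lower (4.38% of all genes). In EB WT relative to ES WT 9 fell (24.8% of all genes) and 1 rose (36.2% of all genes), led by Mcm5 (-1.58), Ccne1 (-2.68), Mcm2 (-1.13) and Ung (-1.78). In EB KO relative to ES KO 4 fell (12.0% of all genes), Mcm5 (-0.87), Ccne1 (-1.34), Mcm2 (-0.44) and Ung (-0.49), and 0 rose (17.1% of all genes, and 0 listed genes at an unadjusted p under 0.05). EB KO thus lay above EB WT for most S-phase genes. Of the 43 tested replication-dependent histone genes, 10 were called lower (23.3%, against 25.9% of all genes), a share near that of all genes. A difference above 0 was found in 16 of the 43, and in 7106 of all 15424 genes tested. The part of the share of cells in S phase in either set was not tested.

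Replacement histones, which are made throughout the cell cycle from polyadenylated mRNAs, were set beside the members. Of 9 tested, 4 fell (25.9% of all genes) and 1 rose (20.0% of all genes) in EB KO relative to EB WT. H1f0, the linker histone H1.0 of differentiated cells, had 64.6 and 106 FPKM in EB KO against 236 and 273 in EB WT (log2 difference -1.60, SE 0.42, adjusted p = 0.0188). H1fx (-1.11, adjusted p = 0.0133), H2afy, the macroH2A gene (-0.51, adjusted p = 0.0134), and H3f3a, an H3.3 gene (-0.48, adjusted p = 0.0289), fell as well. In ES cells H3f3b, the other H3.3 gene, rose, with 497 and 531 FPKM in ES KO against 276 and 259 in ES WT (0.94, SE 0.09, adjusted p = 0.0164, against 0.421% of all genes that rose), and 0 fell (1 at an unadjusted p under 0.05). In EB WT relative to ES WT 5 rose (36.2% of all genes) and 3 fell (24.8% of all genes), among them H2afz (-1.0), H2afy (0.89), H2afx (-0.99) and Cenpa (-0.66). In EB KO relative to ES KO 4 fell (12.0% of all genes) and 0 rose (17.1% of all genes, and 2 listed genes at an unadjusted p under 0.05). The linker histone genes Hist1h1c and H1f0 thus both fell in EB KO and, with H1f0 at 2.73 (adjusted p = 0.00117), both rose in EB WT relative to ES WT.

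H3K4me3, a mark of active promoters, was lower over histone genes in KO in both cell states. The values are the authors' signal per gene, 1 library per group and no replicate, so ratios are given with no test. Of the 68 members, 66 had a row, 14 were below the smallest nonzero step in all 4 libraries and 51 averaged at least 0.5. Hist1h2ap and Hist1h2ao, Hist2h2aa1 and Hist2h2aa2 were among the 14, and Hist1h2aj and Hist2h3c2 among those with no row, so their H3K4me3 is not known here. The members' median signal was 3.03, against 10.2 over all genes. Values at neighbouring genes of a cluster this dense are not independent, and Hist1h2bq and Hist1h2br, with the same promoter sequence, had the same 4 values.

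In ES cells, 48 of the 51 members were lower in KO than in WT (94.1%, against 43.1% of 16674 genes), with a median log2 ratio of -0.52 against 0.04 over all genes. By 1.5-fold or more 22 were lower (43.1%, against 2.0% of all genes), and by 2-fold or more 4 were lower (7.84%, against 0.204%) and 0 higher (0.498% of all genes). The 4 were the H4 genes Hist1h4a, with a signal of 0.587 in ES KO and 1.55 in ES WT, Hist1h4f (0.694 and 1.68) and Hist1h4i (1.04 and 2.16), and the H1 gene Hist1h1a (1.55 in ES KO and 3.68 in ES WT). All 6 H1, 9 H3 and 8 H4 genes, 15 of 16 H2B genes and 10 of 12 H2A genes were lower. Their medians were -0.55 for H1, -0.32 for H2A, -0.44 for H2B, -0.71 for H3 and -0.87 for H4, with H2A nearest to 0. The H2A median covers 12 of the 19 H2A genes, without the abundant Hist1h2ap, Hist1h2aj and Hist1h2ao. The 4 genes by 2-fold were not called in RNA, where the H4 gene Hist1h4i had a log2 difference of -0.01 between ES KO and ES WT.

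In EBs, 44 of 51 were lower in KO (86.3%, against 59.3% of all genes), with a median log2 ratio of -0.61 against -0.12 over all genes. By 1.5-fold 27 were lower (52.9%, against 13.8%). By 2-fold 3 were lower (3.53% of all genes), Hist1h1c, Hist1h2bj and Hist1h4b, and 1 was higher (10.1% of all genes), the testis-specific Hist1h1t. After division by the column total, or after centring on the median of all genes, 0 were lower by 2-fold and the median was -0.50 and -0.48. Hist1h1c had a signal of 1.36 in EB KO and 2.85 in EB WT, 1.01 in ES KO and 1.47 in ES WT, with EB WT highest. This is not particular to Hist1h1c, since EB WT had the highest median signal of the groups in every histone type. Those EB WT medians were 8.04 for H1, 7.24 for H2A, 5.35 for H2B, 5.42 for H3 and 4.90 for H4. Hist3h2a had 16.4 in EB KO and 18.8 in EB WT, Hist3h2ba 5.84 and 7.82, and Hist1h4k 3.15 and 5.28. Of these 4, whose RNA fell in EB KO, none but Hist1h1c reached 2-fold.

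Between cell states the mark was higher in EBs. In EB WT relative to ES WT 31 members were higher by 2-fold or more (60.8%, against 11.1% of all genes) and 4 lower (7.84%, against 12.3%), with a median log2 ratio of 1.14 against 0.13. By any size 43 of 51 were higher (56.7% of all genes). In EB KO relative to ES KO 25 were higher by 2-fold (49.0%, against 1.64% of all genes) and 0 lower (1.48% of all genes), with a median of 0.99 against 0.03, and by any size 46 were higher (53.3% of all genes). By type, the medians in WT were 0.89 for H1, 1.10 for H2A, 0.99 for H2B, 1.38 for H3 and 1.29 for H4. The RNA of some members went the other way: Hist1h3b, Hist1h3c and Hist1h4b fell in EB WT relative to ES WT while their H3K4me3 signal was 5.15, 6.40 and 5.36 in EB WT and 1.89, 2.21 and 1.25 in ES WT. An average signal of at least 0.5 did not always come with RNA: 19 of the 51 members did not pass the FPKM filter. Their mean signals ran from 0.734 at Hist1h1t to 22.8 at Hist1h2be, against a median of 10.2 over all genes. Hist1h2be had the highest mean signal of any member, over a locus of 37455 bases that includes Hist1h1e.

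**Figure D5:**
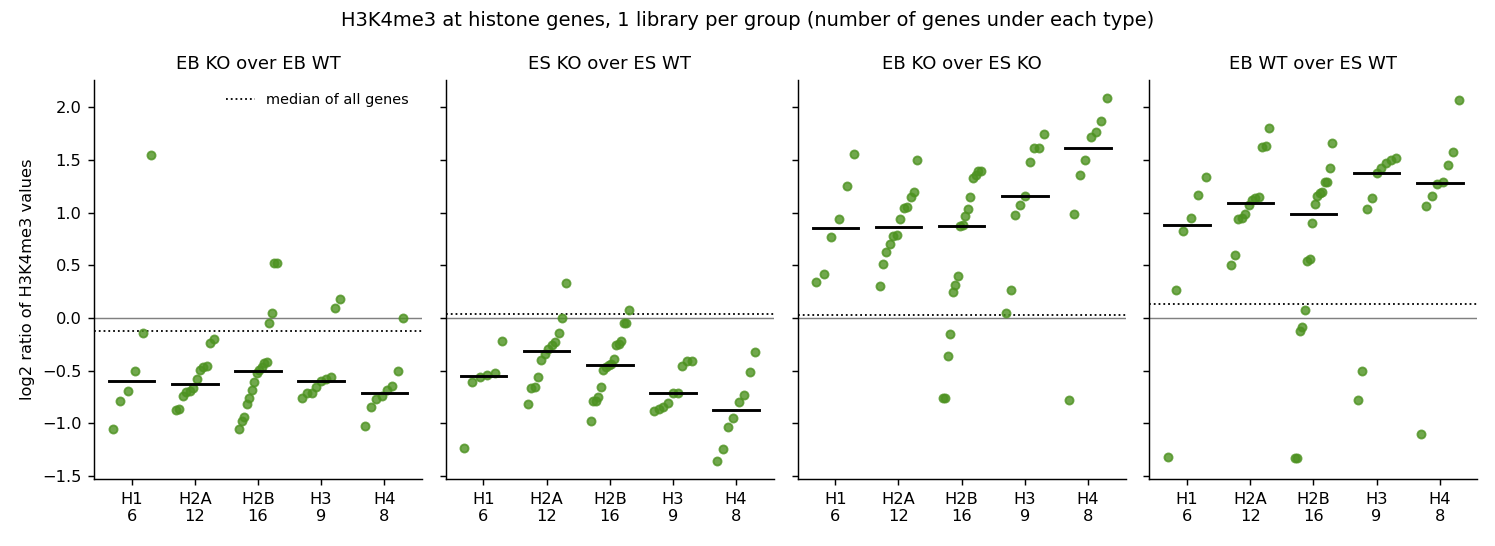
Log2 ratio of the H3K4me3 signal for each of the 51 members in 4 comparisons (EB KO over EB WT, ES KO over ES WT, EB KO over ES KO, EB WT over ES WT), by histone type, with bars for type medians and a dotted line at the median of all genes. Most points lie below 0 in both KO over WT panels (44 and 48 of 51) and above 0 in both EB over ES panels (46 and 43 of 51).

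The deposited signal grows with locus length, and histone genes are short, so other short genes were set beside them in a comparison chosen after seeing the data. Among 41 genes outside the histone set with a locus of at most 1000 bases, the median log2 H3K4me3 ratio was 0.06 for EB KO over EB WT and 0.10 for ES KO over ES WT, where 12 of 41 were lower. The 34 members of that length had medians of -0.69 and -0.65. For EB WT over ES WT the medians were 1.28 in those members and 0.15 in the 41 other genes, and for EB KO over ES KO 1.16 and 0.21. The part of locus length in the members' ratios was not tested.

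H3K27me3, the mark of Polycomb repression, had a low deposited signal over most histone genes with a row. The 25 of 66 members below the smallest step in all 4 libraries include all 14 that were so for H3K4me3, such as Hist1h2ap and Hist1h2ao. The H3K27me3 of those 14 is likewise not known here. With them counted, the members' median signal was 0.0175 against 1.76 over all genes. The part of the short loci of histone genes in this level was not tested. Only 2 members averaged at least 0.5. These were Hist1h2be, whose locus of 37455 bases includes Hist1h1e, with 4.54 in EB KO, 3.60 in EB WT, 3.79 in ES KO and 4.16 in ES WT, and Hist3h2ba. Hist3h2ba had 0.747 in EB KO and 3.76 in EB WT, 0.0267 in ES KO and 0.0534 in ES WT. Its log2 ratio was -2.27 for EB KO over EB WT, lower by more than 2-fold as in 7.72% of all genes, and 5.35 for EB WT over ES WT (3.97 with a pseudocount of 5 steps, the ES KO and ES WT values being 1 and 2 steps). EB WT, the group with most Hist3h2ba RNA (7.84 and 11.2 FPKM), was thus also the group with most H3K27me3 over the gene, while its H3K4me3 was 7.82 there and 5.28 in ES WT.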

How the data were processed

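The authors deposited 1 FPKM table (fragments normalised by the authors for gene length and sequencing depth, in the column layout of Cufflinks, per the file headers) and ChIP tables with a signal value for each gene. File names describe that signal as promoter RPKM, but it grows with locus length. Build mm10 and the tools DESeq2, HTSeq, Bowtie2, Cufflinks 2.2.1 and STAR 2.6.0a stand in the submitters' processing notes, and their roles do not. No counts are in these tables, so sequencing depth is unknown.

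After removal of 120 second entries of a symbol from 53560 rows, limma 3.58.1 (R 4.3.3; lmFit, eBayes with trend) was fitted to log2(FPKM + 1) of 15424 genes with 1 FPKM in at least 2 of 8 libraries. The 4 group means shared the spread (4 residual degrees of freedom, 7.05 after moderation). Tests were two-sided, Benjamini-Hochberg adjusted over all genes tested, with a threshold of 0.05. Differences on this scale understate changes of low genes. The procedure was tested on simulated data. ChIP ratios used genes averaging 0.5 or more and a pseudocount of 1 step (0.0267 for H3K4me3, 0.04 for H3K27me3). Python 3.11.15 with pandas 2.3.3 and numpy 2.4.6 was used. Inputs were not analysed here, and 0 columns were unmapped.

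Members and lists were chosen with earlier results of these data known. Named members were those called in any comparison, the 10 most abundant, the 2 highest of each type, Hist4h4 and both Hist3 genes. Listed genes were named where called, at most 4 per comparison for S phase and replacement histones. Alternatives covered the pseudocount, filter, scaling, samples in the fit, a replicate block and each library left out.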

Additional observations from a re-analysis of the deposited data

Results flagged for a closer look

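For 2 members the difference between KO and WT in EBs differed from that in ES cells by the test of the difference itself. For Hist1h1c, the H1.2 gene, KO minus WT was lower in EBs than in ES cells by a log2 value of -2.15 (SE 0.52, limma adjusted p = 0.0218). Hist1h1c was lower in both EB KO libraries than in both EB WT libraries, and the ES KO and ES WT libraries overlapped. For Hist1h4k, an H4 gene, the value was -1.34 (SE 0.30, adjusted p = 0.0167), with both EB KO libraries below both EB WT libraries and both ES KO libraries above both ES WT libraries. Neither held throughout: without 1 library the adjusted p reached 0.0790 for Hist1h1c and 0.0619 for Hist1h4k, and with no filter on low values it was 0.166 for Hist1h1c and 0.0848 for Hist1h4k.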

How the results depend on the processing

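Leaving out each library in turn gave 2 to 11 members that fell and 0 to 1 that rose in EB KO relative to EB WT, 4 to 10 that fell in EB WT relative to ES WT, 0 to 3 that rose and 1 to 6 that fell in EB KO relative to ES KO, and 0 to 2 above and 0 to 2 below 0 in the difference of differences. Such fits leave 1 library in a group, assumed to vary like the others. Of 37 calls, 8 held in every such fit. With no filter on low values, 0 fell in EB KO relative to EB WT, 3 rose and 2 fell in EB WT relative to ES WT, 0 rose and 0 fell in EB KO relative to ES KO, and 0 were below 0 in the difference of differences. With a mean of at least 1 FPKM, 7 fell in EB WT relative to ES WT. A pseudocount of 0.1, and quantile normalization, each gave 1 member that rose in EB KO relative to EB WT. Fitted on the 2 groups compared, 1 rose and 2 fell in EB KO relative to ES KO. With replicate number as a block, 2 members fell in ES KO relative to ES WT, 5 rose in EB KO relative to ES KO and 2 were above 0 in the difference of differences. The numbers were not taken to pair the libraries, since no label ties them to a shared source and the deviations of same-numbered libraries from their group means correlated at 0.07 to 0.31 across genes. For single members, 1830 values kept direction and side of the threshold, 156 lost the call, 44 gained it, 27 moved, and none reversed.

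At 1.5-fold in place of 2-fold, 27 members were lower in H3K4me3 for EB KO over EB WT, 22 for ES KO over ES WT and 3 for EB KO over ES KO. After division by the column total 0 were lower by 2-fold for EB KO over EB WT with a median of -0.50, and after centring on all genes 0 with a median of -0.48. Without its most abundant member, the ratio of summed H1 FPKM was 1.19 for EB KO over EB WT and 0.469 for EB WT over ES WT, on the other side of 1, and 1.63 for ES KO over ES WT and 0.340 for EB KO over ES KO. Without Hist1h4k, the H4 ratio was 1.01 for EB KO over EB WT and 0.684 for EB WT over ES WT. Without Hist1h2ap, the H2A ratio was 0.792 for EB KO over EB WT and 0.592 for ES KO over ES WT. The cause of these shifts was not tested, apart from the fewer genes, libraries or degrees of freedom that some settings leave. With 2 libraries per group and 1 per ChIP group, small differences may be missed.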
